A study of Homo sapiens with 12 samples.

Results

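Fc receptors bind the constant part of antibodies. The set described here has 10 genes: FCER1A, FCER1G and MS4A2, which encode the alpha, gamma and beta chains of the high-affinity IgE receptor; FCER2, which encodes the low-affinity IgE receptor CD23; FCGR2A and FCGR2B, the activating and the inhibitory low-affinity IgG receptors CD32A and CD32B; the Fc receptor-like genes FCRL1, FCRL3 and FCRL5 of B cells; and FCMR, the receptor for IgM. A gene was measured through the brightest row of the deposited value table that the platform's annotation ties to its symbol alone. This gave 9 of the 10 genes, each with 1 row, out of 18404 genes in all; MS4A2 was not analysed here. The members were chosen from the levels measured on these arrays, in particular those in the 2 cell lines, so differences between the lines are given below as a description without a test.

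The 12 arrays come from U-HO1 and L-1236, established Hodgkin lymphoma lines, each with 3 arrays of cells given an shRNA against GATA-3 and 3 of cells given a control shRNA. U-HO1 was grown in IMDM and L-1236 in RPMI 1640, so line and medium cannot be told apart. The transduced cells carried GFP, and after 3 days of culture RNA of 25000 sorted GFP-positive cells per sample was amplified for a whole-transcript Affymetrix array. The 3 samples of a group are called independent in the labels, which do not say whether they were separate cultures, so each p-value reflects array-to-array spread of whatever origin, and the number of arrays limits the precision. Levels are on the authors' log scale, read as log2, with array medians between 6.96 and 7.09; no background level is given, and levels below the medians are not shown to lie above background.

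The IgE receptor of mast cells and basophils is assembled from an IgE-binding alpha chain, a signal-amplifying beta chain and a gamma chain dimer whose tyrosine motif recruits the kinase SYK; in humans the beta chain can be missing, but the gamma chain is needed to bring the alpha chain to the cell surface. CD23 is a lectin-like receptor of activated B cells, induced by interleukin 4 through STAT6, and its soluble form is released by the protease ADAM10. CD32B carries an inhibitory motif that recruits the phosphatase SHIP1 and dampens B-cell receptor signals, while CD32A carries an activating motif. Hodgkin cells derive from B cells and lose much of the B-cell programme. In mast cells, GATA factors are known activators of FCER1A.

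The promoter windows of the 3 genes whose level differed most between the lines are shown, since GATA-3 was the target of the shRNA and STAT6 is a known inducer of FCER2. Each runs from 250 bases before to 50 bases after an annotated start (RefSeq, GRCh38.p14), read 5′ to 3′ along the gene, and FCER2 has a pair of starts. Capitals mark GATA motifs (AGATAA, with T also allowed as its first and G as its last letter, on either strand) and STAT-type motifs (TTC and GAA with 3 or 4 bases of any kind between them, a pattern that reads the same on both strands); no marked motif overlaps another.
FCER1A, chr1:159302086-159302385, plus strand: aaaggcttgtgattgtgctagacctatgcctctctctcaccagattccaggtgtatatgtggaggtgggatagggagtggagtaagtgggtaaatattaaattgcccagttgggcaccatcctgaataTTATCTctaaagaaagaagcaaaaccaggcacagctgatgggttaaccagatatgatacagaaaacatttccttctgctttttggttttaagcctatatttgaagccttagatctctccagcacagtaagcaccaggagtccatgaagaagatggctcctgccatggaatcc
FCGR2A, chr1:161505207-161505506, plus strand: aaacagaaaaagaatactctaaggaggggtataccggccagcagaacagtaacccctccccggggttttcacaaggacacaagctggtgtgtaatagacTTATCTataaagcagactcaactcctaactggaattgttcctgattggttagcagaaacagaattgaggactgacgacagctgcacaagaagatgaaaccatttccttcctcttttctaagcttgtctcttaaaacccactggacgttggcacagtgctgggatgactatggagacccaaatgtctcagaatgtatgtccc
FCER2, chr19:7702082-7702381, minus strand: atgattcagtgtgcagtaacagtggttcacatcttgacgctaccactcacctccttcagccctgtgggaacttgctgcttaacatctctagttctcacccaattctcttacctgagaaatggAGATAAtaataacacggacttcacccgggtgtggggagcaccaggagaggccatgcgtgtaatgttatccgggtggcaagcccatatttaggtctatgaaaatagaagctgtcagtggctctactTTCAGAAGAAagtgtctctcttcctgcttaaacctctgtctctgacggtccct
FCER2, chr19:7699392-7699691, minus strand: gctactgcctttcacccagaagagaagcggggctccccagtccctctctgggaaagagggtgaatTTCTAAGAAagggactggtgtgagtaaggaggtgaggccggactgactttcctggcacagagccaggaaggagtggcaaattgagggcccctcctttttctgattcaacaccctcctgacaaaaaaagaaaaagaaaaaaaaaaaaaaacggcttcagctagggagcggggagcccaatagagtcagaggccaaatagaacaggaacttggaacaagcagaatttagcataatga
The FCER1A window holds a GATA motif, on the minus strand of the gene, from 122 to 117 bases before the start. The FCGR2A window holds the same letters from 151 to 146 bases before its start. The first FCER2 window holds a GATA motif from 128 to 123 bases before the start and a STAT-type motif across the start itself, and the second holds a STAT-type motif from 185 to 177 bases before its start. All 10 genes matched the promoter table, with 13 windows; a GATA motif was found in 7 of the 13, among them that of MS4A2, against 25% of the 35116 windows in the table. The STAT-type motif with 4 bases between was found in 3 of the 13 windows, against 6.44% of all, and that with 3 bases in 3, against 7.66%. These are matches of letters and no evidence of binding.

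FCER1A was near the bottom of the scale in U-HO1 and high in L-1236. In U-HO1 it read 5.50, 5.94 and 5.93 on the arrays labelled GATA-3 shRNA replicates 1, 2 and 3 and 5.70, 6.09 and 5.77 on those labelled control. In L-1236 it read 11.08, 10.68 and 10.93 on the arrays labelled GATA-3 shRNA and 10.83, 11.03 and 10.53 on those labelled control. The 2 lines were 4.44 apart even between the highest U-HO1 and the lowest L-1236 array. On control arrays FCER1A averaged 5.85 ± 0.21 in U-HO1 and 10.80 ± 0.25 in L-1236 (SD, n = 3 each), a ratio of measured values of 30.8, and on the arrays labelled GATA-3 shRNA the ratio was 34.4. In bulk arrays of this kind, fewer cells with a transcript and less of it per cell cannot be told apart.

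**Figure D1:**
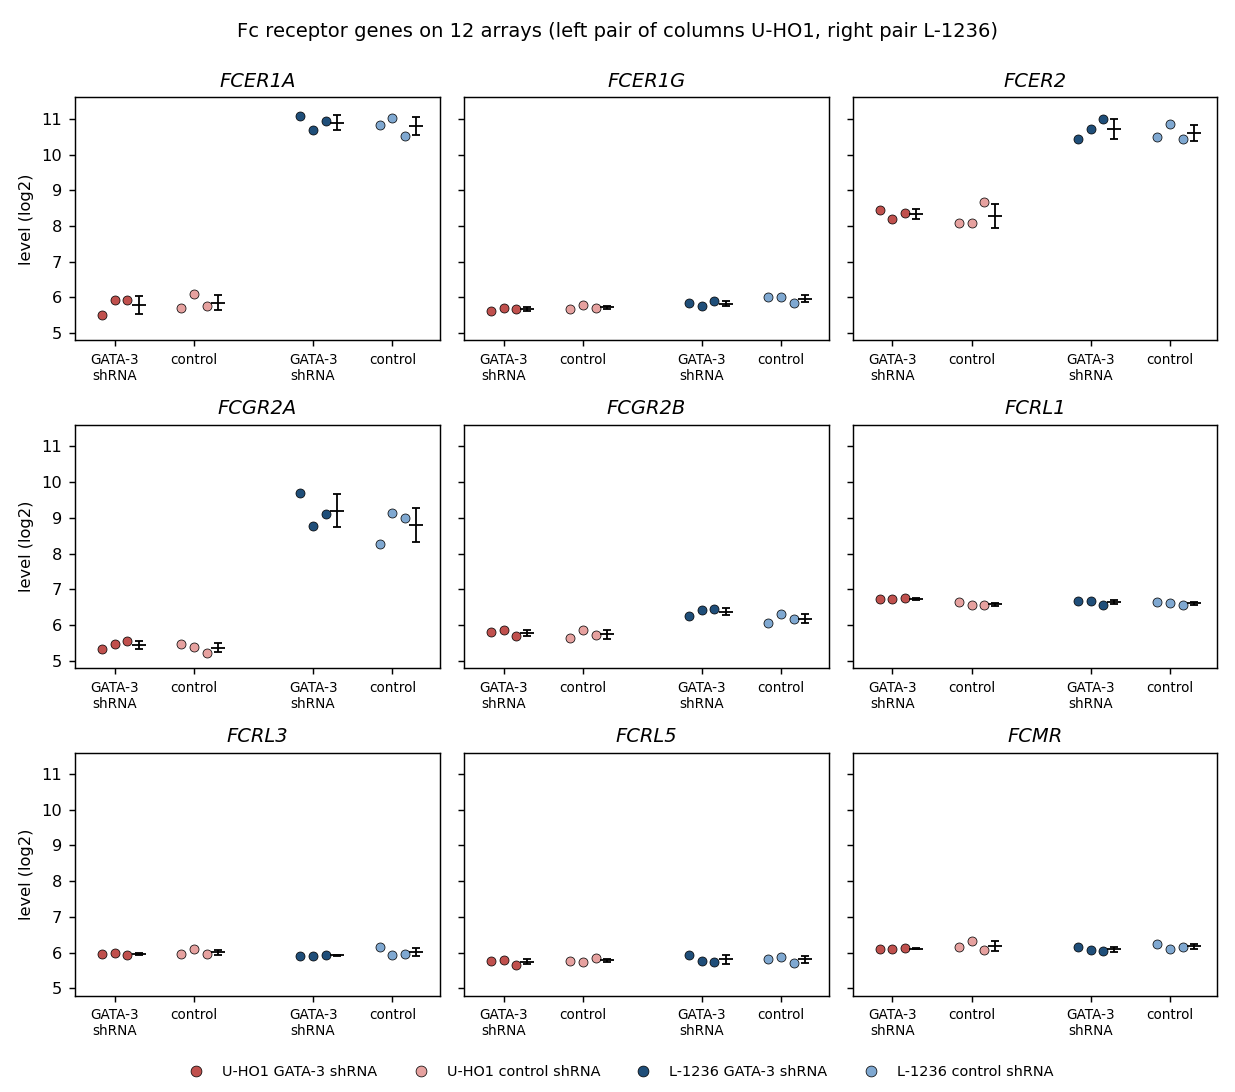
Level (log2) of the 9 measured Fc receptor genes on each of the 12 arrays, replicates 1 to 3 from left to right within a group, with the mean and SD beside each group (n = 3). FCER1A, FCER2 and FCGR2A are lower on the 6 U-HO1 arrays than on the 6 L-1236 arrays with a wide gap; the other 6 genes lie between 5.62 and 6.76 on all arrays.

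The partner chain did not share this pattern. FCER1G, the gamma chain, read 5.63 to 5.78 on the 6 U-HO1 arrays and 5.76 to 6.02 on the 6 L-1236 arrays, so the lines overlapped. FCER1G averaged 5.72 ± 0.05 on U-HO1 control arrays and 5.96 ± 0.10 on L-1236 control arrays (SD, n = 3 each). All 12 FCER1G values lie below every array median, in L-1236 as in U-HO1, so the chain that carries FCER1A to the cell surface in mast cells was not shown above background in the line with high FCER1A. SYK, the kinase that the gamma chain recruits, averaged 6.39 ± 0.12 in U-HO1 and 6.37 ± 0.09 in L-1236, also below the array medians. The array does not measure surface protein.

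FCER2 was present in both lines at different levels. In U-HO1 it read 8.45, 8.19 and 8.37 on the arrays labelled GATA-3 shRNA replicates 1, 2 and 3 and 8.07, 8.09 and 8.67 on those labelled control, all above the array medians. In L-1236 it read 10.43, 10.71 and 10.997 on the arrays labelled GATA-3 shRNA and 10.50, 10.86 and 10.44 on those labelled control. The lowest L-1236 array was thus 1.76 above the highest U-HO1 array. The ratio of means on control arrays was 4.998 in favour of L-1236, from 8.28 ± 0.34 in U-HO1 and 10.60 ± 0.22 in L-1236 (SD, n = 3 each).

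FCGR2A, the activating IgG receptor, followed FCER1A. In U-HO1 it read 5.32, 5.47 and 5.55 on the arrays labelled GATA-3 shRNA and 5.48, 5.40 and 5.23 on those labelled control. In L-1236 it read 9.69, 8.78 and 9.11 on the arrays labelled GATA-3 shRNA and 8.26, 9.14 and 8.997 on those labelled control. On control arrays FCGR2A averaged 5.37 ± 0.13 in U-HO1 and 8.80 ± 0.47 in L-1236, a ratio of 10.8 (SD, n = 3 each). Its spread was wide within L-1236: the 6 arrays covered 1.43 on the log2 scale, against 0.55 for FCER1A and 0.56 for FCER2, with control replicate 1 the lowest and GATA-3 shRNA replicate 1 the highest.

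For the inhibitory IgG receptor the answer depended on the row read. The row that the annotation gives to FCGR2B alone read 5.62 to 5.86 on U-HO1 arrays and 6.05 to 6.45 on L-1236 arrays. These do not overlap, but both lie below the array medians, and the means on control arrays differed by -0.44. A second row is annotated to FCGR2B and to its near-identical neighbour FCGR2C together, and is assigned to neither gene. It read 6.92, 7.10 and 6.74 on U-HO1 arrays labelled GATA-3 shRNA and 7.20, 7.19 and 6.67 on U-HO1 control arrays. In L-1236 the same row read 11.24, 11.15 and 10.66 on the arrays labelled GATA-3 shRNA and 10.24, 10.80 and 11.40 on the control arrays. The row of FCGR2C and FCGR2B therefore differed between the lines by -3.79 on control arrays, a ratio of 13.9, which the row of FCGR2B alone did not show. Transcripts of FCGR2A, FCGR2B and FCGR2C are alike in sequence, and how far probes of these rows share targets is not known from the files.

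The B-cell Fc receptor-like genes and the IgM receptor stayed low in both lines. FCRL1 read 6.56 to 6.76 in U-HO1 and 6.57 to 6.67 in L-1236. FCRL3 read 5.93 to 6.09 in U-HO1 and 5.90 to 6.15 in L-1236. FCRL5 read 5.66 to 5.84 in U-HO1 and 5.71 to 5.95 in L-1236, and FCMR read 6.07 to 6.33 in U-HO1 and 6.05 to 6.26 in L-1236. For these 4 genes the means of the lines on control arrays were within 0.03 of each other, and the arrays of the lines overlapped. These genes mark mature B cells, and no value of any of them reached the lowest array median.

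In count, 3 of the 9 measured members were at least 2-fold lower in U-HO1 on control arrays and 0 were at least 2-fold higher, where 3.23% of 18404 genes were lower and 3.79% higher by that measure. On all 12 arrays, 4 members had every U-HO1 array below every L-1236 array, against 15.5% of genes, and 0 had every U-HO1 array above, against 15% of genes. The members were chosen with these differences known, so nothing is read from the counts. The median difference over the 9 was -0.24, and that over all 32321 rows was 0.00063.

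The comparison of the shRNAs asked whether these receptors depend on GATA-3. GATA3 itself did not separate the labels: in U-HO1 it read 11.07, 10.12 and 10.22 on arrays labelled GATA-3 shRNA replicates 1, 2 and 3 and 11.24, 10.90 and 10.24 on control arrays. In L-1236 it read 10.80, 10.00 and 10.24 on arrays labelled GATA-3 shRNA and 10.29, 10.69 and 9.95 on control arrays. GATA-3 shRNA minus control came to -0.32 in U-HO1 and to 0.03 in L-1236 for it on the log2 scale, and several arrays go against their label, so every direction below is that of the labels alone.

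No Fc receptor gene passed in either line. By limma with Benjamini-Hochberg adjustment over 32321 rows, 0 of the 9 members had an adjusted p under 0.05 and 0 reached the submitters' own cut-offs, an FDR up to 25% together with a 1.5-fold change, where the share of all rows called was 0% by each rule in each line. At an unadjusted p under 0.05 there was 0 of 9 in L-1236, where 4.77% of rows had one, and 1 of 9 in U-HO1, where 1.05% had one. The median log2 difference of the 9 was 0.02 in L-1236 and -0.04 in U-HO1, beside -0.0091 over all rows in L-1236 and -0.0016 in U-HO1.

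**Figure D2:**
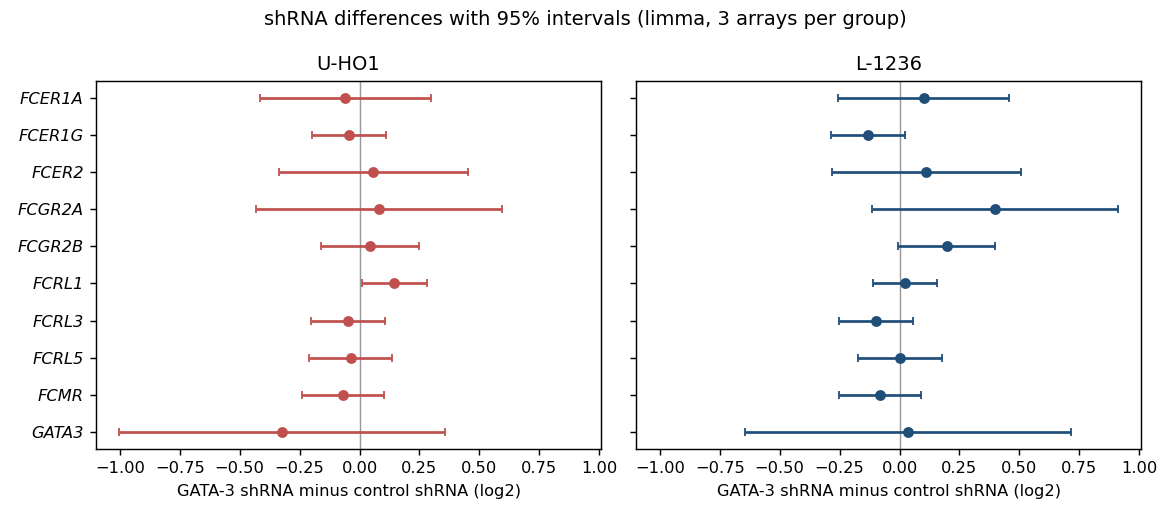
Log2 difference between arrays labelled GATA-3 shRNA and control shRNA for the 9 Fc receptor genes and GATA3 in U-HO1 (left) and L-1236 (right), with 95% intervals from limma (3 arrays per group, spread shared over 4 groups). All intervals but that of FCRL1 in U-HO1 include 0, and those of GATA3 are the widest.

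FCER1A differed by 0.10 in L-1236 (SE 0.16, 95% interval from -0.25 to 0.46, limma adjusted p = 0.942) and by -0.06 in U-HO1 (SE 0.16, 95% interval from -0.41 to 0.30). In L-1236 the sign turned when the 4 arrays whose GATA3 went against the label were left out, at -0.12, and without control replicate 3, at -0.033. Those 4 arrays were picked by their GATA3 level. In L-1236 they are GATA-3 shRNA replicate 1 and control replicate 3, which also held the highest and the lowest FCER1A value, so the turn to -0.12 is no separate check. The intervals leave out a change of FCER1A beyond 1.5-fold between the labels in both lines, but not smaller ones. For FCER2 the difference was 0.11 (SE 0.18, 95% interval from -0.28 to 0.51) in L-1236 and 0.06 (SE 0.18, 95% interval from -0.34 to 0.45) in U-HO1. FCER1G differed by -0.13 (SE 0.07) in L-1236 and -0.04 (SE 0.07) in U-HO1.

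Among the IgG receptors FCGR2A had the largest difference of the 9, 0.40 in L-1236 (SE 0.24, 95% interval from -0.11 to 0.91, limma adjusted p = 0.925), with overlapping groups. Leaving out single arrays moved it between 0.13 and 0.60, at 0.13 without control replicate 1, 0.15 without GATA-3 shRNA replicate 1, 0.57 without control replicate 2 and 0.60 without GATA-3 shRNA replicate 2, and array quality weights gave 0.18. In U-HO1 FCGR2A differed by 0.08 (SE 0.24). This SE shares the spread over all 4 groups. The SD of FCGR2A was 0.11 on GATA-3 shRNA and 0.13 on control arrays in U-HO1. In L-1236 it was 0.46 on GATA-3 shRNA and 0.47 on control arrays. FCGR2B differed by 0.20 in L-1236 (SE 0.09, unadjusted p = 0.0563 and adjusted p = 0.925 by limma) and by 0.04 in U-HO1 (SE 0.09), again with overlapping groups.

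FCRL1 was the member with an unadjusted p under 0.05. In U-HO1 it read 6.72, 6.72 and 6.76 on the arrays labelled GATA-3 shRNA and 6.64, 6.56 and 6.56 on the control arrays, which do not overlap. The difference was 0.15 (SE 0.06, unadjusted p = 0.0363 and adjusted p = 1.00 by limma), at levels below the array medians. Groups of 3 arrays parted in this way for 3.79% of all rows in U-HO1 and 10.7% in L-1236, where 0 of the 9 members parted. FCRL3, FCRL5 and FCMR differed by between -0.10 and 0.0019 in L-1236 and between -0.07 and -0.04 in U-HO1.

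The effects of the shRNA were not shown to differ between the lines for any member. Taking U-HO1 minus L-1236, the difference of effects ran from -0.32 (SE 0.33) for FCGR2A to 0.12 (SE 0.09) for FCRL1, and 0 of 9 passed by limma at an adjusted p under 0.05 or an unadjusted one, against 0% and 2.46% of all rows. The effect averaged over both lines was 0.24 (SE 0.17) for FCGR2A, 0.08 (SE 0.13) for FCER2 and 0.02 (SE 0.12) for FCER1A, with 0 of 9 under an unadjusted 0.05, against 2.27% of rows, and 0 of 9 at an adjusted 0.05, against 0%.

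Since the labels did not order GATA3, the IgE receptor genes were set against GATA3 itself over the 6 arrays of each line. In L-1236 FCER1A and GATA3 were highest on the same arrays, GATA-3 shRNA replicate 1 and control replicate 2, and lowest on the same arrays, GATA-3 shRNA replicate 2 and control replicate 3. Pearson's r was 0.93 (exact two-sided permutation p = 0.0111, adjusted p = 0.0667 over 6 relations) and Spearman's rho 0.94 (exact p = 0.0167, adjusted p = 0.1), so the relation failed the correction. Without the 2 arrays farthest from the GATA3 median, r was 0.90 over the other 4. With each array centred on its median r was 0.91 and rho 1.00 (exact adjusted p = 0.0333 and 0.0167), and after quantile normalization r was 0.95 (exact adjusted p = 0.0583). Of the 18403 genes other than GATA3, 79 (0.429%), FCER1A itself among them, had an r with GATA3 in L-1236 at or above that of FCER1A. With both signs counted, 119 genes had an r at least as far from 0, again with FCER1A among them. The FCER1A range over these arrays was 0.55 on the log2 scale and that of GATA3 was 0.85. Members were chosen with levels on these same arrays known. The p-values of the relations to GATA3 do not account for that choice and are read as a description.

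FCER1G had an r of 0.43 with GATA3 in L-1236 (exact p = 0.399, rho 0.31) and -0.21 in U-HO1 (exact p = 0.658, rho -0.54). FCER2 had 0.02 in L-1236 (exact p = 0.989, rho -0.14) and -0.43 in U-HO1 (exact p = 0.385, rho -0.31). FCER1A in U-HO1, at levels not shown above background, had -0.44 (exact p = 0.389, rho -0.60). Adjusted over the 6 relations these p-values were between 0.598 and 0.989 for r and between 0.594 and 0.803 for rho, and the r without the 2 farthest arrays was 0.81 and 0.34 for FCER1G and FCER2 in L-1236 and 0.73, 0.91 and -0.52 for FCER1A, FCER1G and FCER2 in U-HO1. Interferon-response genes also moved between the L-1236 arrays, with a mean over 9 genes of 9.69, 10.38 and 9.09 on arrays labelled GATA-3 shRNA and 8.45, 8.25 and 10.50 on control arrays. Against that mean FCER1A had an r of -0.66 in L-1236 (exact p = 0.176) and GATA3 one of -0.57 (exact p = 0.274), and their part in the relation was not tested.

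**Figure D3:**
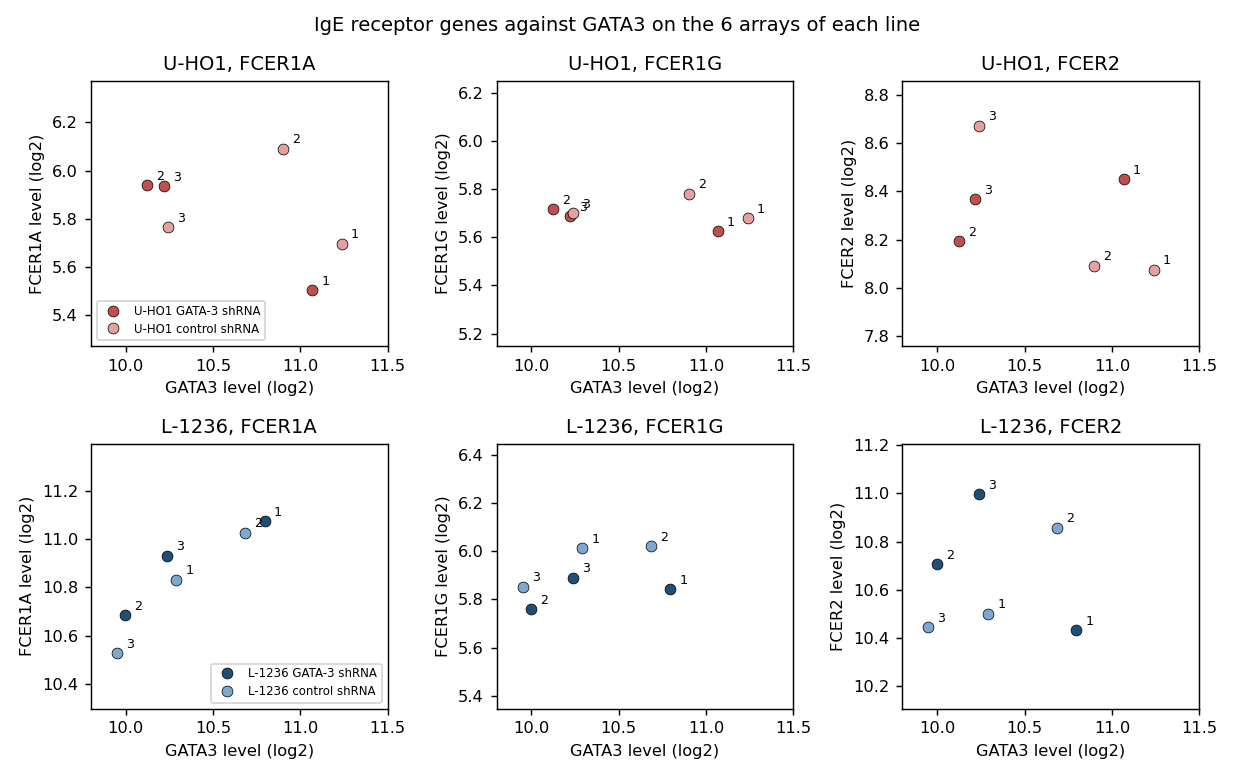
Levels (log2) of FCER1A, FCER1G and FCER2 against the GATA3 level (log2) on the 6 arrays of U-HO1 (top) and L-1236 (bottom), numbered by replicate and coloured by shRNA label. Each vertical axis spans the same width; In L-1236 r with GATA3 was 0.93 for FCER1A, which failed the correction over 6 relations (exact permutation, adjusted p = 0.0667), and 0.02 for FCER2; the difference between them was not tested.

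Genes of 4 lists on other antibody receptors, their signalling and CD23, and of 6 lists of cell type markers and interferon-response genes, were compared between the lines on control arrays with the same limma fit, where a call needs an adjusted p under 0.05 and a 2-fold difference. Of the 106 genes on all 10 lists, 9 were higher and 10 lower in U-HO1, beside 3.78% higher, 3.21% lower and 6.99% in either direction among 18404 genes, and the median difference was -0.0073 over the lists. All 10 lists were chosen with earlier results of these data known, so nothing is read from their counts. Of 15 other antibody receptors 11 were measured, and 0 of these 11 were called. The list thus lacks FCGR1A, FCGR1BP, FCGR2C and FCGR3B, which had no row of their own. The row that FCGR2C shares with FCGR2B, given above without a test, was 13.9-fold lower in U-HO1. The cytosolic antibody receptor TRIM21 averaged 8.28 ± 0.09 in U-HO1 and 7.52 ± 0.67 in L-1236 (log2 difference 0.75, limma adjusted p = 0.0571), and the neonatal receptor FCGRT 7.95 ± 0.06 in U-HO1 and 7.81 ± 0.08 in L-1236 (SD, n = 3 each). FCRLB differed by -0.19 and FCRL6 by 0.09. The missing call of TRIM21 rests on 1 array: without L-1236 control replicate 3 it was 2.20-fold higher in U-HO1 (limma adjusted p = 0.000483), which makes 1 call among the 11.

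Of 11 ligands, processing enzymes and inducers of CD23, 5 were lower in U-HO1 and 1 was higher. By the same rule 3.21% of 18404 genes were lower and 3.78% higher. The list was chosen with earlier results of these data known, so nothing is read from the counts, and a link of these genes to FCER2 was not tested. The 5 that were lower in U-HO1, as FCER2 was, are the interleukin 4 receptor chain IL4R, at 8.78 ± 0.22 in U-HO1 and 9.95 ± 0.19 in L-1236 (2.25-fold, limma adjusted p = 1.71e-05), its partner chain IL13RA1 (2.42-fold, adjusted p = 0.000538), the transcription factor STAT6 that they activate (2.05-fold, adjusted p = 0.000979), the costimulatory receptor CD40 (3.88-fold, adjusted p = 5.21e-07) and the B-cell factor PAX5 (3.93-fold, adjusted p = 7.12e-06). STAT6 lies at the 2-fold limit, and its call was lost without L-1236 control replicate 3 (1.80-fold), U-HO1 control replicate 1 (1.88-fold) or U-HO1 control replicate 2 (1.97-fold), with adjusted p-values by limma of at most 0.00588. LGALS3, which encodes the IgE-binding lectin galectin-3, was 3.19-fold higher in U-HO1 (adjusted p = 0.000255). ADAM10, the CD23 protease, differed by 0.28 and the CD23 ligand CR2 by 0.25, neither of them called. Other inducers on the list went against FCER2, short of the 2-fold limit. IL13 was 1.74-fold higher in U-HO1 (limma adjusted p = 0.00154) and RBPJ 1.42-fold higher (limma adjusted p = 0.0147). IL4 differed by -0.0087 and was not called.

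Signalling genes differed in both directions. Of 20 activating genes, 3 were higher and 1 lower in U-HO1. By the same rule 3.78% of 18404 genes were higher and 3.21% lower, and nothing is read from the counts. The phosphoinositide kinase subunit PIK3CG was 26.5-fold higher (limma adjusted p = 4.51e-11), the protein kinase PRKCB 4.34-fold higher and the SRC-family kinase FYN 2.40-fold higher, while the adaptor LCP2, which links SYK to phospholipase C in mast cells, was 7.46-fold lower (adjusted p = 3.11e-08). The adaptor SOS1, at 1.98-fold, was called higher when any of 4 control arrays was left out, U-HO1 replicate 1 or 2 or L-1236 replicate 2 or 3, at 2.00-fold to 2.12-fold. SYK, BTK and PLCG2 were not called, with differences of 0.02, 0.23 and -0.01. Of 10 inhibitory genes, the membrane adaptor PAG1 was higher, 2.62-fold (adjusted p = 6.06e-06), and 0 were lower. INPP5D, which encodes SHIP1, the phosphatase that CD32B recruits, differed by -0.13. In neither shRNA comparison did any of the 106 genes pass at an adjusted p under 0.05 by limma.

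**Figure D4:**
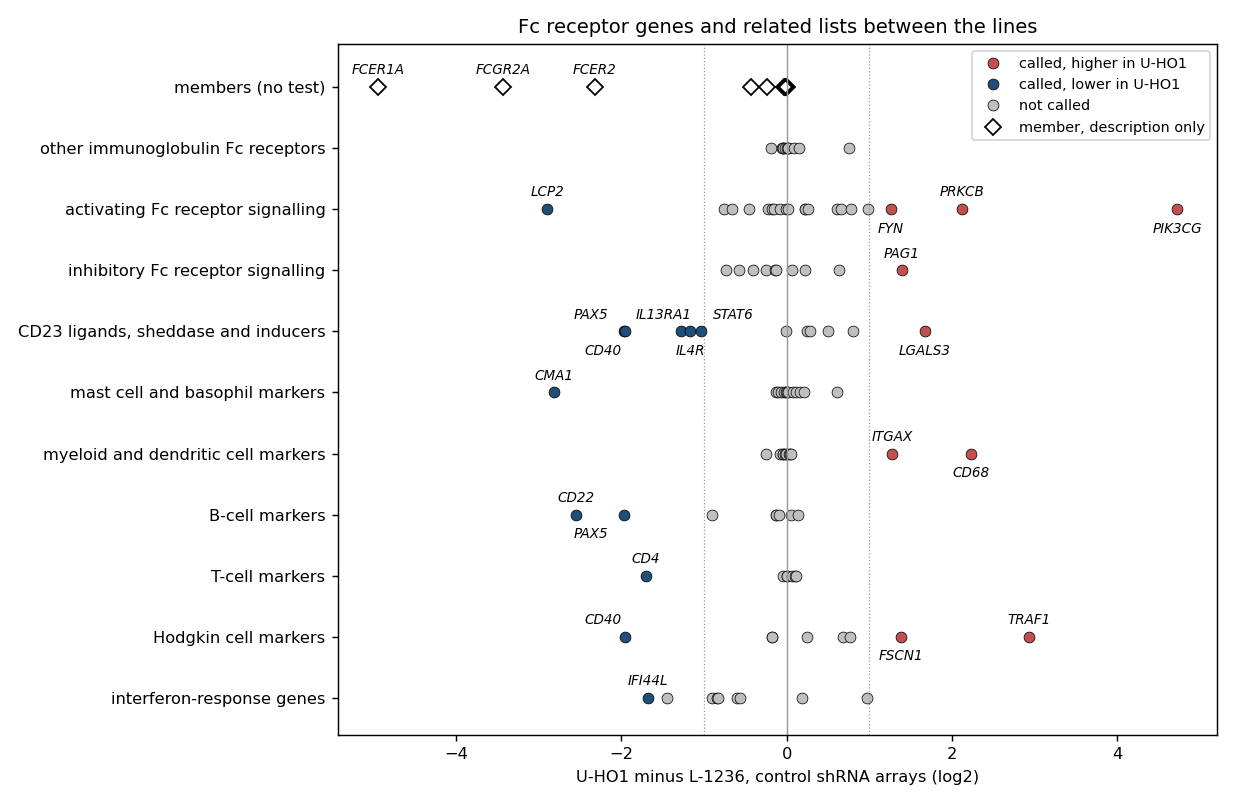
Log2 difference between U-HO1 and L-1236 on control shRNA arrays for the 9 Fc receptor genes (diamonds, no test) and for the genes of 10 related lists (circles, coloured by the limma call at an adjusted p under 0.05 and at least 2-fold, dotted lines). FCER1A, FCGR2A and FCER2 lie left of the 2-fold line at -4.94, -3.43 and -2.32. The 11 other antibody receptors with a row of their own lie within it, and the row of FCGR2C and FCGR2B is not shown.

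Markers of cells that normally carry these receptors were read on the same arrays. Among 18404 genes 3.78% were called higher and 3.21% lower in U-HO1, and nothing is read from the counts below. Of 13 mast cell and basophil markers, 1 was called: CMA1, which encodes the mast cell protease chymase, at 6.12 ± 0.09 in U-HO1 and 8.93 ± 0.48 in L-1236 (7.03-fold lower in U-HO1, limma adjusted p = 1.75e-06). The stem cell factor receptor KIT averaged 5.64 in U-HO1 and 5.68 in L-1236, and the protease CPA3 5.63 in U-HO1 and 5.62 in L-1236. The histamine-forming enzyme HDC averaged 6.10 in U-HO1 and 6.21 in L-1236, and these markers all lay below the array medians. Other markers of the list did not: ENPP3 averaged 9.54 in U-HO1 and 9.38 in L-1236, and IL3RA 7.91 in U-HO1 and 7.30 in L-1236. GATA1 averaged 7.30 in U-HO1 and 7.29 in L-1236, above the array medians in both lines. GATA2 averaged 7.09 in U-HO1 and 6.88 in L-1236, and none of ENPP3, IL3RA, GATA1 and GATA2 was called. The mean of this list was 6.44 to 6.61 on U-HO1 control arrays and 6.63 to 6.73 on L-1236 control arrays. Its markers other than CMA1 differed by between -0.12 and 0.61, so these means do not show a shift of the whole list. Averaged over the 6 arrays of a line, 4 of the 13 genes lay above the array medians in each line. Of 11 myeloid and dendritic cell markers, CD68 (4.68-fold) and ITGAX (2.42-fold) were higher in U-HO1 and 0 were lower, with list means on control arrays of 6.75 to 6.89 in U-HO1 and 6.51 to 6.62 in L-1236. Of 8 measured B-cell markers, the inhibitory receptor CD22 (5.83-fold) and PAX5 were lower in U-HO1, with list means of 6.67 to 6.81 in U-HO1 and 7.35 to 7.49 in L-1236. By the same average, 2 of the 8 lay above the array medians in U-HO1 and 4 in L-1236. Of 7 T-cell markers CD4 was 3.25-fold lower in U-HO1, with list means of 6.25 to 6.46 in U-HO1 and 6.53 to 6.57 in L-1236. The T-cell markers other than CD4 differed by between -0.05 and 0.11, so these means do not show a shift of the whole list. All 8 Hodgkin cell markers, TNFRSF8 among them, lay above the array medians in both lines when averaged over the 6 arrays of a line. TRAF1 ran from 6.75 to 7.23 on the L-1236 arrays, so not every single array lay above. Of the 8, TRAF1 (7.62-fold) and FSCN1 (2.62-fold) were higher and CD40 was lower in U-HO1. Of 9 interferon-response genes, IFI44L was 3.21-fold lower in U-HO1 (limma adjusted p = 0.0133), and 2.00-fold lower without L-1236 control replicate 3 (adjusted p = 0.0077). Without that array IFIT3 was called higher (4.24-fold), and MX1 and SP110 were called lower without L-1236 control replicate 2 (4.003-fold and 2.07-fold), SP110 also without replicate 1 (2.15-fold).

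The genes whose profile over the 12 arrays was most like that of a member were found by Pearson's r among 18404 genes, which mostly reflects the step between the lines. For FCER1A these were AP3M2, STEAP3 and POU2F3, with r = 0.998, 0.998 and 0.997 over 12 arrays. The r of AP3M2, STEAP3 and POU2F3 with FCER1A was 0.25, 0.41 and 0.57 within U-HO1 and 0.86, 0.62 and 0.77 within L-1236. For FCGR2A these were GHR, the growth hormone receptor, STRA6, a retinol transporter, and the potassium channel KCND3, with r = 0.997, 0.997 and 0.995. The r of GHR, STRA6 and KCND3 with FCGR2A was 0.43, 0.59 and -0.42 within U-HO1 and 0.96, 0.97 and 0.98 within L-1236. For FCER2 these were PECR, SLC26A6 and MTMR10, with r = 0.995, 0.995 and 0.994, and here the r within each line was also high, at 0.99, 0.92 and 0.92 in U-HO1 and 0.94, 0.91 and 0.80 in L-1236. These genes were picked as the highest of all, so the values are a description.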

How the data were processed

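RNA of 12 sorted samples was measured on 1-colour arrays. The authors deposited 32321 rows of processed values, which run from 3.86 to 13.99 and were treated as log2. Per the submitters' processing notes R 2.8.1 was used; no source used here gives the background correction or normalization. Per the platform annotation, 19158 rows have 1 symbol, 1388 several and 11775 are unnamed here.

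A mean for each of the 4 groups was fitted to all 12 arrays with limma 3.58.1 (R 4.3.3), leaving 8 residual degrees of freedom; no row was filtered out, and Benjamini-Hochberg adjustment ran across every row. The fit was tested on simulated data. IgE receptor genes were related to GATA3 within each line by exact permutation (scipy 1.17.1), over 6 relations in place of the 8 planned, since MS4A2 was not analysed. Members and lists were chosen with earlier results of these data known. Named genes are the members, GATA3, up to 4 genes per list with the largest difference between the lines and the 3 genes most like each of the 3 members with the widest range. SYK, BTK, PLCG2, INPP5D, ADAM10, CR2, KIT, CPA3, HDC, IL4R, STAT6 and TNFRSF8 were added for their role after their values were seen. SOS1, IL13, RBPJ, IL4 and GATA1 were also added after their values were seen. Alternatives covered normalization, filters, priors, array weights, left-out arrays and a replicate block. Same-numbered arrays were not shown to deviate together, with correlations of their deviations between -0.40 and 0.32.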

Additional observations from a re-analysis of the deposited data

How the results depend on the processing

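The counts of members called for the shRNA were 0 under every alternative run: quantile normalization, arrays centred on their medians, rows under the median mean left out (which keeps 3 members), the mean of a gene's rows, only the 6 arrays compared, array quality weights, a robust prior with trend, the 4 arrays against their GATA3 label left out, each array left out in turn, and a replicate block. The replicate numbers are not shown to pair arrays: same-numbered arrays correlated in their deviations at between -0.40 and 0.32. The replicate block left 0 members called in each of the 4 shRNA comparisons and 19 related genes called between the lines, and changed no other call. Over all these settings the members' adjusted p was at least 0.603. The 3 members at least 2-fold apart between the lines stayed 3 in number in each setting, and the related genes called numbered 18 to 22, the 18 without the interferon-response list, an alternative added after seeing the data. IgE receptor genes related to GATA3 at an adjusted 0.05 numbered 0, or 1 with arrays centred on their medians; the cause was not tested. Leaving out single arrays was not run for that relation, as 5 arrays fall below the number asked for.

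Under alternatives other than leaving out single arrays, 19 of 282 shRNA differences of single members changed sign, none of them called. Of 36 differences between the lines, 7 changed sign, 3 of FCRL1, 3 of FCRL3 and 1 of FCRL5, none of them past 0.036 in size after the turn; FCRL1 came to 0.036 over all 12 arrays. Without the 4 arrays against their label, the L-1236 difference was -0.12 for FCER1A, -0.010 for FCRL1 and -0.12 for FCRL5, the U-HO1 difference of FCER1A was 0.043, the difference of effects was 0.17 for FCER1A, 0.025 for FCER2 and 0.094 for FCRL5, and the average for FCER1A was -0.039. With array quality weights FCRL5 in L-1236 was -0.000947, FCER1A in U-HO1 was 0.050 and the difference of effects of FCER2 was 0.031. After quantile normalization the differences of effects were 0.050 for FCER2, -0.00323 for FCRL3 and -0.043 for FCMR, and the averages -0.021 for FCER1A and 0.0028 for FCRL5. With centred arrays the differences of effects were -0.018 for FCRL3 and -0.054 for FCMR, and the average of FCRL5 was 0.011. With single arrays left out, FCER1A ran from -0.033 to 0.22 in L-1236, from -0.14 to 0.086 in U-HO1 and from -0.046 to 0.093 in the average. FCER2 ran from -0.032 to 0.25 in L-1236, from -0.045 to 0.25 in U-HO1 and from -0.19 to 0.14 in the difference of effects. FCRL5 ran from -0.066 to 0.041 in L-1236, from -0.063 to 0.0047 in U-HO1, from -0.078 to 0.029 in the difference and from -0.051 to 0.0033 in the average. FCGR2B in U-HO1 ran from -0.013 to 0.11, FCMR from -0.13 to 0.0065 there and from -0.045 to 0.089 in the difference, and FCRL3 from -0.016 to 0.089 in the difference. Levels near the bottom of the scale have no measured background, so ratios against them depend on it.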

Other observations

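In L-1236 the row annotated to FCGR2C and FCGR2B together was set, after its values were seen, against the mean of 9 interferon-response genes. It was lowest on control replicate 1 and highest on control replicate 3, and its r with that mean over the 6 arrays was 0.83 (exact two-sided permutation p = 0.0556, adjusted p = 0.556 over 10 relations; rho 0.77, exact p = 0.103), with 0.91 over the 4 arrays left without the 2 farthest. FCGR2A on the same arrays had an r of 0.22 (exact p = 0.707) and FCER2 one of -0.39 (exact p = 0.403). In U-HO1, where the interferon-response mean covered only 8.34 to 8.72, the row had an r of 0.37 (exact p = 0.46), which was -0.66 without the 2 farthest arrays. None of the 10 relations passed after adjustment.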
